A study of Mus musculus with 10 samples.

Results

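The synaptic vesicle, active zone and scaffold genes described here are 48 genes, 28 whose products work mainly on the presynaptic side of a synapse and 20 whose products work mainly on the postsynaptic side. Their open chromatin was read from ATAC-seq, in which the transposase Tn5 cuts accessible DNA and leaves sequencing adapters there. A peak belonged to a gene when it overlapped the gene or lay within 5000 bp of its ends, and the nearest gene end decided where several genes were in reach. By that rule 100 of the 37513 deposited peaks belonged to the set, 62 of them at presynaptic and 38 at postsynaptic genes. All 100 passed the filter of at least 10 reads over all libraries, and they lay at 40 of the 48 genes (83.3%), against 12669 of 21896 protein-coding genes in all (57.9%). No peak was assigned to Syt2, Syt4, Syt11, Sv2a, Rims1, Nlgn2, Nlgn3 or Homer2, although 1 peak within reach of Nlgn2 was nearer to Tmem256.

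The nuclei came from sections of fresh frozen brain and lung of wild-type (WT) C57BL/6J mice, an inbred laboratory strain, and all groups share that strain and genotype. Tn5 acted on the whole section, and a laser then cut out randomly chosen nuclei, either 10 areas of about 20 nuclei each (about 200 nuclei) or 50 nuclei taken singly. There were 4 groups: brain at 200 nuclei (n = 2 libraries), brain at 50 nuclei (n = 2), lung at 200 nuclei (n = 3) and lung at 50 nuclei (n = 3). The labels call the libraries technical replicates, so p-values measure the spread between these libraries, and size cannot be told apart from capture mode. The labels do not state the region, the cell types or the number of animals, and fewer nuclei of a type cannot be told apart from less open chromatin per nucleus.

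A nerve terminal stores transmitter in vesicles that carry synaptophysin, synapsins, SV2 proteins and synaptotagmins, the calcium sensors of release. SNARE proteins fuse the vesicle with the membrane, complexins clamp and assist that fusion, and Piccolo, Bassoon, RIM and Munc13 proteins dock and prime vesicles at the active zone. Across the cleft, neurexins bind neuroligins, and Dlg, Dlgap, Shank and Homer proteins are stacked as the scaffold under glutamate receptors. Most of these genes are used chiefly by neurons, but some, such as Vamp2, Dlg1 and Homer1, also act in other cells.

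Reads in nuclear peaks ranged from 319307 to 465489 in brain libraries and from 340697 to 3075377 in lung libraries. Mitochondrial peaks took 93.4% to 95.8% of brain reads and 24.7% to 58.0% of lung reads. Levels are given as reads per 1000000 nuclear-peak reads (RPM), and values by library are listed with the 200-nuclei libraries before the 50-nuclei ones. In brain, 1 read is worth more RPM than in the deep lung libraries, and intervals on reads cover counting error only. Tissue identity was checked with marker lists. Over all peaks tested, 5.76% were called higher in brain and 4.39% higher in lung. Of 10 peaks at 5 of 6 neuron markers (Nefl had no peak), 6 were higher in brain, and the summed level was 197 to 278 RPM in brain libraries and 21.9 to 99.8 RPM in lung libraries. Of 42 peaks at 7 endothelial markers, 17 were higher in lung, with 346 to 556 RPM in brain and 1170 to 1720 RPM in lung. At alveolar epithelial markers 6 of 24 peaks were higher in lung, with Sftpc lacking a peak. Those 6 peaks lay at only 2 of the 7 alveolar genes.

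Promoters of 5 genes are shown because a peak that was called higher in brain lies over the bases printed. RefSeq promoter windows of GRCm38.p6, the assembly of the mm10 build the peaks use, were available for 36 of the 48 genes (58 windows, 250 bases before to 50 after a start). A peak overlapped such a window at 20 of the genes, and at 8 of these (Clstn3, Cplx1, Dlgap1, Homer1, Nrxn3, Pclo, Syn2 and Syt1) the peak was called higher in brain. Those of Clstn3, Syt1, Pclo, Syn2 and Nrxn3 are printed. Of the others, Cplx1 and Homer1 had higher p-values, and the Dlgap1 peak, although its p was lower than that of Syn2, reached none of the bases before the start. The 250 bases before the start are printed 5′ to 3′ on the gene's strand. Capitals mark every match, on either strand, to GGGCGG (the GC box), CAGCACC or GGACAGC (parts of the element bound by the neuronal repressor REST), TGACGT (most of the cAMP response element) and CAGATG (an E-box).
Clstn3, chr6:124464785-124465034, minus strand: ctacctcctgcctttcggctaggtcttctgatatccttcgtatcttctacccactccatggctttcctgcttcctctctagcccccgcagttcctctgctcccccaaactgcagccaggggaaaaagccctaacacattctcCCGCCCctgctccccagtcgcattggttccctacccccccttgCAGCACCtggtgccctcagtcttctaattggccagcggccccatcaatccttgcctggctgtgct
Syt1, chr10:109010976-109011225, minus strand: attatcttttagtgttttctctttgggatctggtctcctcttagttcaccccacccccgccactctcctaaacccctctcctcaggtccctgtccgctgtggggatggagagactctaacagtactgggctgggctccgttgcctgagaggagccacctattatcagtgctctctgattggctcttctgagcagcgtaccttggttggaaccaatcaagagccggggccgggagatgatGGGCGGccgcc
Pclo, chr5:14514668-14514917, plus strand: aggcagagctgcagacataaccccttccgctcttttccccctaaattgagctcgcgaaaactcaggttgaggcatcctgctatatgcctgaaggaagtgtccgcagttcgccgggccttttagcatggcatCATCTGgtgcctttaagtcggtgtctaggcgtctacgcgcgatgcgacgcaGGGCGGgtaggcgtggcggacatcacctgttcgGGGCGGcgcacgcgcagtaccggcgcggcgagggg
Syn2, chr6:115134652-115134901, plus strand: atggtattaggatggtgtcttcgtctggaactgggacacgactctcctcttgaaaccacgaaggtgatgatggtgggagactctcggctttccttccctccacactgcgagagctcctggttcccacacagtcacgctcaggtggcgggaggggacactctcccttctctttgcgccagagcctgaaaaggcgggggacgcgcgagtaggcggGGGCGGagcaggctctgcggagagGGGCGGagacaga
Nrxn3, chr12:89812233-89812482, plus strand: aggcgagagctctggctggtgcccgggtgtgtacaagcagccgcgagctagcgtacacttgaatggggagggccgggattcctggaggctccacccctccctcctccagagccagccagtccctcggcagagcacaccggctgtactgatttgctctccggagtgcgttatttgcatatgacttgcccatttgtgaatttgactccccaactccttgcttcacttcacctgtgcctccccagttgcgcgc
The GC box was found in the windows of Clstn3 (on the opposite strand), Syt1, Pclo and Syn2, with 2 copies in Pclo and 2 in Syn2, and none of the motifs was in the printed Nrxn3 window, which lies before an internal start of that gene. Clstn3 also held CAGCACC, 65 bases before the start, and Pclo held an E-box on the opposite strand. Over the genes' 58 windows the GC box occurred in 46.6%, against 32.7% of all 32851 windows in the table, and the E-box in 6.90% against 14.4%. The REST parts occurred in 5.17% and 3.45% of the genes' windows, against 5.73% and 5.28% of all windows, and the cAMP element in 6.90% against 6.47%. Median GC content was 56.6% in the genes' windows and 52.4% in all windows. These matches describe letters only, and a match is not evidence of binding.

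Peaks at these genes were called higher in brain more often than higher in lung. Of the 100 peaks, 23 at 17 genes were higher in brain and 2, at Syn3 and Shank3, were higher in lung (edgeR quasi-likelihood test, Benjamini-Hochberg adjusted p at 0.05). Among all 37466 peaks tested, 10.2% were called, 5.76% higher in brain and 4.39% higher in lung. With DESeq2, 27 of the set were higher in brain, against 9.04% of all peaks. The median log2 fold of brain over lung was 0.83 over the 100 peaks and 0.07 over all peaks, and 67 of the 100 folds were positive, against 52.4% of all. All brain libraries were above all lung libraries at 28 of the 100 peaks, called or not, against 8.40% of all nuclear peaks, and the reverse held at 2, against 4.94%. Both sides of the synapse took part: 15 of 62 presynaptic peaks were higher in brain and 1 in lung, while 8 of 38 postsynaptic peaks were higher in brain and 1 in lung. Among all peaks, the share called moved as libraries were left out 1 at a time. It was 17.5% without lung 50-nuclei replicate 3 and 5.47% without lung 200-nuclei replicate 3. With any 1 brain library left out it was under 10.2%. With 1 library left out at a time, the number called ran between 12 (without brain 200-nuclei replicate 1) and 36 (without lung 50-nuclei replicate 3). It was 15 without brain 50-nuclei replicate 1, without brain 50-nuclei replicate 2 or without lung 200-nuclei replicate 3, and 10 of the 25 peaks stayed called each time.

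**Figure D1:**
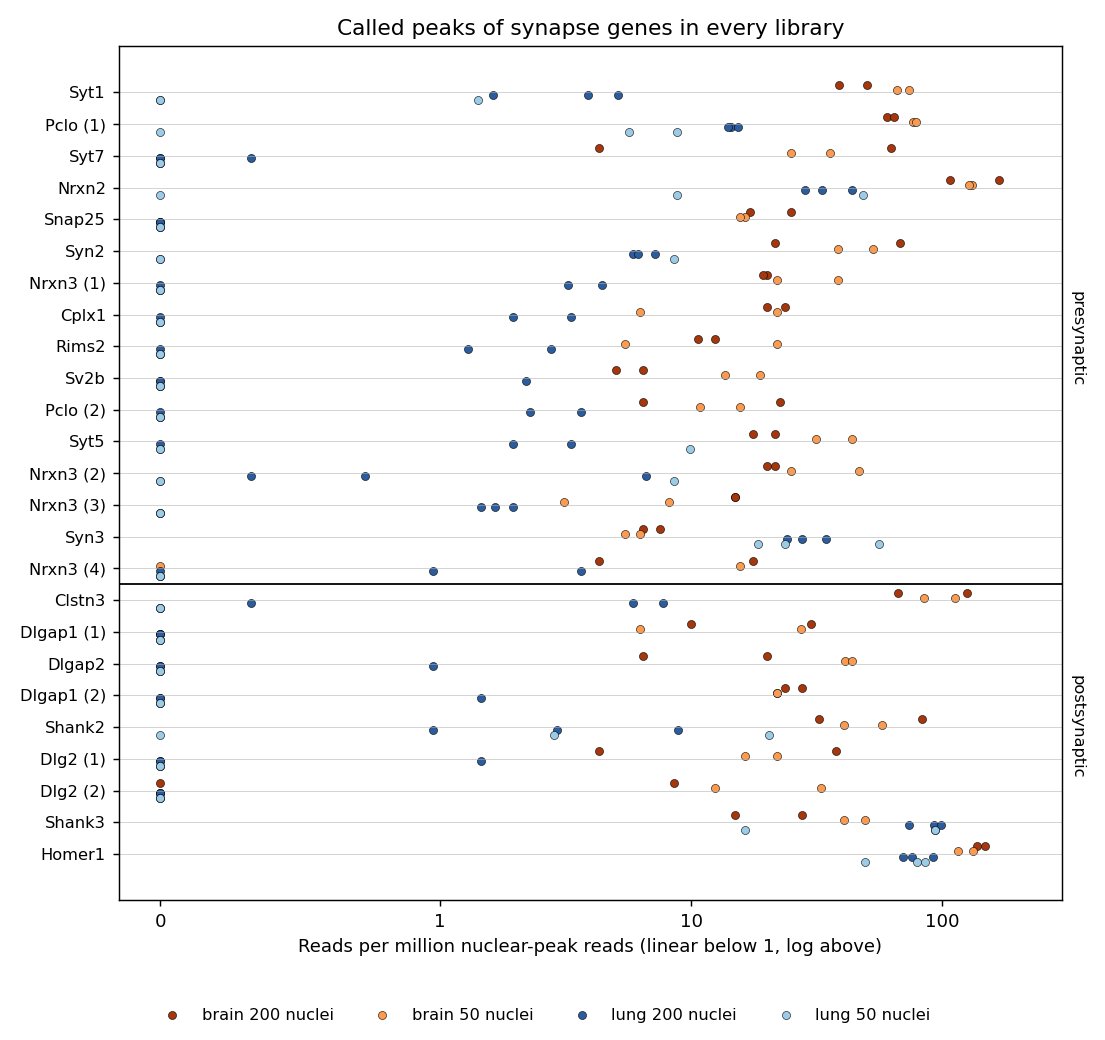
The horizontal axis gives RPM (linear below 1, log above) and each row is a called peak, with a dot for each of the 10 libraries coloured by tissue and number of nuclei. Numbers in brackets order a gene's peaks by p-value. Brain dots lie right of all lung dots except at Syn3 and Shank3, where lung is higher, and in a Dlg2 row and a Nrxn3 row, where a brain library is at 0.

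Each SE of a log2 fold is the absolute fold divided by the square root of the test's F statistic, so it restates the p-value. Where all lung 50-nuclei libraries were at 0 (15 of the 23 peaks higher in brain), the fitted fold rests on a prior count that the model adds. For those peaks the ratio of pooled RPM is given instead, with its 95% exact binomial interval. When lung had no reads, the ratio puts 3 reads over the whole lung group. That ratio leaves out counting error and spread in brain, so it is not a lower bound. Peaks with no lung reads passed the filter of at least 10 reads through brain alone.

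Among the calcium sensors, all 3 synaptotagmin genes with a peak were higher in brain at 1 peak each. That is 3 of 4 peaks (75.0%, against 5.76% of all peaks). Syt1 encodes the fast sensor of synchronous release. Its gene-end peak (10:109010897-109011154) had 50.1 and 38.7 RPM at 200 nuclei and 73.9 and 65.8 RPM at 50 nuclei in brain, against 3.88, 5.12 and 1.63 RPM at 200 nuclei and 1.42, 0 and 0 RPM at 50 nuclei in lung. Every brain library was above every lung library, and the log2 fold was 5.09 ± 0.74 (SE, adjusted p = 1.42e-05). Without lung 50-nuclei replicate 1 the fold was 6.40, and the call held with each library left out. This is the peak over the Syt1 promoter printed above.

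Syt7 encodes a slower, high-affinity sensor. Its peak inside the gene (19:10397922-10398014) had 62.7 and 4.30 RPM at 200 nuclei and 35.6 and 25.1 RPM at 50 nuclei in brain, and 0.325 RPM in lung 200-nuclei replicate 3 and 0 in the other lung libraries. The brain libraries differed widely among themselves but none reached down to lung, where the group held 1 read (pooled ratio 243, interval 41.6 to 9790, adjusted p = 1.81e-04, and 0.0306 without brain 200-nuclei replicate 1). Syt5, a vesicle synaptotagmin, averaged 28.5 ± 11.7 RPM in brain (SD, n = 4) and 2.54 ± 3.88 RPM in lung (SD, n = 6) at 7:4546589-4546728, with Ptprh also in reach (log2 fold 3.26 ± 0.94, SE, adjusted p = 0.0211), and the fold was 5.78 without lung 50-nuclei replicate 1. That call was lost with 6 of the 10 libraries left out in turn, with an adjusted p up to 0.12 without brain 50-nuclei replicate 1.

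Of the 11 peaks at SNARE and complexin genes, 2 were called, both higher in brain (18.2%, against 5.76% of all peaks), at Snap25 and Cplx1. Snap25 encodes a plasma membrane SNARE. Its gene-end peak (2:136713431-136713548) had 25.1 and 17.2 RPM at 200 nuclei and 16.4 and 15.7 RPM at 50 nuclei in brain, and 0 in all 6 lung libraries. Brain held 29 reads there and lung none, a ratio of 48.9 with 3 reads put in lung (adjusted p = 6.22e-04). A second Snap25 gene-end peak (2:136714274-136714386) averaged 9.26 ± 3.94 RPM in brain and 4.63 ± 5.60 RPM in lung, and was not called (adjusted p = 0.619).

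Cplx1, the main complexin of many brain synapses, had 20.1 and 23.6 RPM at 200 nuclei and 21.9 and 6.26 RPM at 50 nuclei in brain at its gene-end peak (5:108549998-108550088). Lung had 3.32, 0 and 1.95 RPM at 200 nuclei and 0 throughout at 50 nuclei. No libraries overlapped between tissues (pooled ratio 12.2, interval 6.05 to 26.3, adjusted p = 0.00981), and the call was lost without brain 50-nuclei replicate 1 (adjusted p = 0.106). The 3 Cplx2 peaks, the 2 each of Vamp1 and Vamp2 and the Stx1a peak were not called. Stx1a, the syntaxin partner of Snap25, averaged 50.8 ± 9.16 RPM in brain and 42.8 ± 22.2 RPM in lung. For Cplx2 the strongest peak averaged 33.6 ± 9.82 RPM in brain and 9.79 ± 9.19 RPM in lung, and all brain libraries were above all lung libraries although the adjusted p was 0.136.

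The vesicle protein genes held 34 peaks, 25 of them at Syn3, and 2 were higher in brain (5.88%, against 5.76% of all peaks). Syn2 encodes a synapsin that tethers vesicles. The peak over its printed promoter (6:115134785-115134972) had 67.7 and 21.5 RPM at 200 nuclei and 38.3 and 53.2 RPM at 50 nuclei in brain, against 7.20, 5.86 and 6.18 RPM at 200 nuclei and 8.53, 0 and 0 RPM at 50 nuclei in lung. The tissues did not overlap (log2 fold 3.20 ± 0.73, SE, adjusted p = 0.00296). The call was lost without brain 200-nuclei replicate 1 (adjusted p = 0.101), and the fold was 5.63 without lung 50-nuclei replicate 1. Sv2b, a vesicle glycoprotein, had 16 reads in brain and 3 in lung at 7:75154016-75154106 (pooled ratio 27.0, interval 7.72 to 145, adjusted p = 0.0185). Its call was lost with 5 of the 10 libraries left out in turn, with an adjusted p up to 0.0804 without brain 200-nuclei replicate 2.

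Peaks at Syp, Syn1, Rab3a and Syngr1 were not called. The weaker Rab3a peak, with Pde4c in reach, averaged 15.3 ± 11.4 RPM in brain and 25.7 ± 13.1 RPM in lung (adjusted p = 0.468). The Syp peak at X:7648748-7649220, inside the gene for the vesicle marker synaptophysin, averaged 47.0 ± 17.1 RPM in brain and 85.9 ± 27.9 RPM in lung (log2 fold -0.90, adjusted p = 0.0995). Its gene-end peak, with Cacna1f in reach, averaged 16.3 ± 6.20 RPM in brain and 9.25 ± 10.3 RPM in lung (adjusted p = 0.561). The peak at Syn1, another synapsin gene, had Cfp in reach and averaged 22.4 ± 8.80 RPM in brain and 6.30 ± 4.62 RPM in lung (adjusted p = 0.204).

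Syn3, another synapsin gene, held folds of both directions. Its span (10:86048746-86498926) contains Timp3, which encodes an inhibitor of matrix metalloproteinases, at 10:86300412-86349505. Of the 18 Syn3 peaks at coordinates below Timp3, 15 had a negative fold of brain over lung, with a median log2 of -1.32. Of the 7 above it, 5 had a positive fold, with a median of 0.69. The called peak (10:86124151-86124464) lies on the side below and had 7.52 and 6.44 RPM at 200 nuclei and 5.47 and 6.26 RPM at 50 nuclei in brain, against 27.7, 24.2 and 34.5 RPM at 200 nuclei and 18.5, 55.8 and 23.7 RPM at 50 nuclei in lung. All lung libraries were above all brain libraries (log2 fold -2.20 ± 0.72, SE, adjusted p = 0.0449), and the call was lost with 7 of the 10 libraries left out in turn (adjusted p up to 0.175 without brain 50-nuclei replicate 1).

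At the upper end of Syn3, the peak at 10:86498793-86499030 ran the other way, with 58.6 ± 14.6 RPM in brain and 24.9 ± 7.05 RPM in lung. Its brain libraries were all above the lung ones, and it missed the threshold (log2 fold 1.24 ± 0.43, SE, adjusted p = 0.0586). Of the 6 peaks assigned to Timp3 itself, 4 had a negative fold and none was called. Reads at a peak inside Syn3 cannot be ascribed to one gene or the other from these data. Without Syn3, a choice made after its values were seen, brain was higher at 15 of 37 presynaptic peaks and lung at none. That choice removes the only presynaptic peak called higher in lung. Of all peaks, 5.76% were higher in brain and 4.39% in lung.

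**Figure D2:**
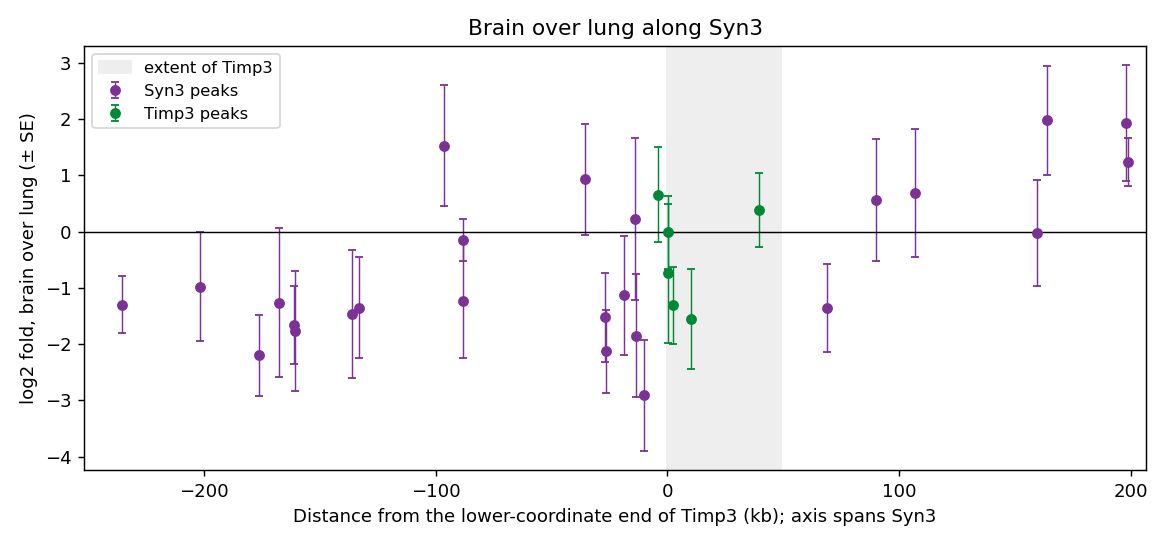
The horizontal axis gives the distance in kb from the lower-coordinate end of Timp3 across the extent of Syn3, and the vertical axis the log2 fold of brain over lung with its SE for each Syn3 and Timp3 peak. Left of Timp3 15 of 18 Syn3 peaks lie below 0, and right of it 5 of 7 lie above 0. The short bar at the Syn3 peak of log2 -0.15 does not measure precision. That peak averages folds of 3.66 at 50 nuclei and -3.96 at 200 nuclei.

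Of the 7 peaks at active zone genes, 3 were higher in brain (42.9%, against 5.76% of all peaks), 2 at Pclo and 1 at Rims2. Pclo encodes Piccolo, a giant scaffold of the active zone. Its promoter peak (5:14514685-14515268) had 60.2 and 64.4 RPM at 200 nuclei and 76.6 and 78.3 RPM at 50 nuclei in brain, against 14.4, 15.4 and 14.0 RPM at 200 nuclei and 5.69, 8.81 and 0 RPM at 50 nuclei in lung. The brain libraries were close to one another and far above lung (log2 fold 3.08 ± 0.53, SE, adjusted p = 1.54e-04), and the call held with each library left out. A narrower peak beside it (5:14515402-14515497) had 21 reads in brain and 12 in lung (pooled ratio 8.85, interval 4.16 to 19.7, adjusted p = 0.0206), with an adjusted p up to 0.126 without brain 200-nuclei replicate 1.

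Rims2, which encodes a RIM protein that docks vesicles near calcium channels, had 12.5 and 10.7 RPM at 200 nuclei and 5.47 and 21.9 RPM at 50 nuclei in brain at 15:39659493-39659587. Lung had 2.77, 0 and 1.30 RPM at 200 nuclei and 0 throughout at 50 nuclei. The tissues did not overlap, and the pooled ratio was 10.7 (interval 4.61 to 26.8, adjusted p = 0.0171), with the call lost for 4 of the 10 left-out libraries (adjusted p up to 0.138 without brain 50-nuclei replicate 2). The peaks of Bsn, Unc13a and Unc13b were not called. Bsn, which encodes Bassoon, the relative of Piccolo, had a peak inside the gene that averaged 6.20 ± 6.35 RPM in brain and 7.84 ± 7.36 RPM in lung. Unc13a, a Munc13 priming factor, averaged 39.3 ± 16.6 RPM in brain and 14.8 ± 8.17 RPM in lung, with Jak3 in reach (adjusted p = 0.136).

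Among the gene classes, neurexins had the highest share called, 5 of 6 peaks, all higher in brain (83.3%, against 5.76% of all peaks). The class holds 2 genes, and 4 of its 6 peaks lie at Nrxn3. The Nrxn2 gene-end peak (19:6418282-6418800), with Rasgrp2 also in reach, had 168 and 107 RPM at 200 nuclei and 131 and 128 RPM at 50 nuclei in brain, against 28.3, 43.9 and 33.2 RPM at 200 nuclei and 48.3, 8.81 and 0 RPM at 50 nuclei in lung. Every brain library was above every lung library (log2 fold 2.27 ± 0.42, SE, adjusted p = 3.94e-04), and the fold was 3.72 without lung 50-nuclei replicate 1. The other Nrxn2 peak, inside the gene, averaged 67.0 ± 14.7 RPM in brain and 41.6 ± 15.5 RPM in lung and was not called (adjusted p = 0.19).

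Nrxn3, one of the longest genes of the set, had 4 peaks, and all were called. The one at the internal start shown above (12:89812248-89812356) had 20.1 and 19.3 RPM at 200 nuclei and 38.3 and 21.9 RPM at 50 nuclei in brain, against 4.43, 0 and 3.25 RPM at 200 nuclei and 0 throughout at 50 nuclei in lung. Its tissues did not overlap (pooled ratio 10.7, interval 5.95 to 19.9, adjusted p = 0.0046), and the call held with each library left out. The peak at 12:89106560-89106672 had 43 reads in brain and 20 in lung (log2 fold 3.15 ± 0.95, SE, adjusted p = 0.0276), and the fold was 5.58 without lung 50-nuclei replicate 1 and 4.19 without lung 200-nuclei replicate 1. The remaining Nrxn3 peaks rested on few reads. At 12:88795516-88795606 there were 17 in brain and 11 in lung (pooled ratio 7.82, interval 3.46 to 18.5, adjusted p = 0.0353), and at 12:88885529-88885638 there were 14 in brain and 8 in lung (8.85, interval 3.47 to 24.4, adjusted p = 0.0476). These 3 peaks lost their calls with 6, 7 and 9 libraries left out in turn. Without brain 50-nuclei replicate 1 the adjusted p of the first was 0.165 and of the next 0.224, and without brain 50-nuclei replicate 2 that of the last was 1.

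On the postsynaptic side, Clstn3 had the lowest p-value of all 100 peaks. It encodes a calsyntenin, a synaptic adhesion protein of the cadherin family that binds neurexins. The peak over its printed promoter (6:124464666-124464981) had 125 and 66.6 RPM at 200 nuclei and 112 and 84.6 RPM at 50 nuclei in brain, against 7.76, 5.86 and 0.325 RPM at 200 nuclei and 0 throughout at 50 nuclei in lung. Brain was far above lung in every library, with 149 reads in brain and 23 in lung (pooled ratio 32.8, interval 21.0 to 53.3, adjusted p = 1.54e-07), and the call held with each library left out. Clstn1, its relative, averaged 14.7 ± 11.2 RPM in brain and 3.80 ± 6.89 RPM in lung and was not called (adjusted p = 0.196), nor was Clstn2 (7.53 ± 5.74 RPM in brain, 2.08 ± 3.42 RPM in lung, adjusted p = 0.143). Nlgn1, a neuroligin, had a single weak peak of 3.62 ± 3.60 RPM in brain and 5.67 ± 4.19 RPM in lung (adjusted p = 0.773).

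Of the 4 Shank peaks, 1 was higher in brain (25.0%, against 5.76% of all peaks) and 1 in lung (4.39% of all peaks). Shank proteins are master scaffolds of excitatory synapses. Shank2 (7:144417665-144417883, inside the gene) had 82.7 and 32.2 RPM at 200 nuclei and 57.5 and 40.7 RPM at 50 nuclei in brain, against 8.87, 2.93 and 0.975 RPM at 200 nuclei and 2.84, 20.5 and 0 RPM at 50 nuclei in lung. The tissues did not overlap (log2 fold 3.32 ± 0.70, SE, adjusted p = 0.00148). The call was lost without brain 200-nuclei replicate 1 (adjusted p = 0.0648), and the fold was 4.28 without lung 50-nuclei replicate 2.

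Shank3 (15:89497668-89498086, inside the gene) ran the other way, with 27.6 and 15 RPM at 200 nuclei and 49.3 and 40.7 RPM at 50 nuclei in brain, against 73.7, 93.0 and 98.5 RPM at 200 nuclei and 93.8, 93.9 and 16.4 RPM at 50 nuclei in lung. A single lung library, 50-nuclei replicate 3, lay within the brain range (log2 fold -1.33 ± 0.42, SE, adjusted p = 0.0342). The call was lost with 8 of the 10 libraries left out in turn, with an adjusted p up to 0.188 without brain 200-nuclei replicate 2. The Shank1 peak, with 1700008O03Rik in reach, missed the threshold with all brain libraries above all lung ones. That peak averaged 84.7 ± 19.7 RPM in brain and 36.0 ± 20.5 RPM in lung (log2 fold 1.29 ± 0.45, SE, adjusted p = 0.0581).

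Dlg genes encode membrane-associated guanylate kinases, among them Dlg4 (PSD-95). Of their 12 peaks, 2 were higher in brain (16.7%, against 5.76% of all peaks), both inside Dlg2. The peak at 7:90748664-90748783 had 37.6 and 4.30 RPM at 200 nuclei and 16.4 and 21.9 RPM at 50 nuclei in brain, and 1.46 RPM in lung 200-nuclei replicate 2 and 0 in the other lung libraries (pooled ratio 75.9, interval 19.3 to 655, adjusted p = 0.00242). Brain was above lung throughout, and the call was lost without brain 200-nuclei replicate 1 (adjusted p = 0.0679). The peak at 7:91262053-91262143 had 20 reads in brain and none in lung, a ratio of 33.7 with 3 reads put in lung (adjusted p = 0.00389). Brain 50-nuclei replicate 1 held 12 of those reads, and brain 200-nuclei replicate 1 was also at 0. With brain 50-nuclei replicate 1 left out, the peak fell below the filter of at least 10 reads and was not tested. DESeq2 did not call this peak (adjusted p = 0.19). Without brain 200-nuclei replicate 2 the call was lost, and the fitted log2 fold was 3.72 in place of 6.22. The strong gene-end peak of Dlg2, with Tmem126b in reach, averaged 138 ± 47.7 RPM in brain and 98.3 ± 33.3 RPM in lung and was not called (adjusted p = 0.311). None of the 4 Dlg4 peaks was called singly, the lowest adjusted p being 0.0679, and the gene-end peak of Dlg1, used in many epithelia, averaged 53.9 ± 12.5 RPM in brain and 26.4 ± 10.7 RPM in lung (adjusted p = 0.118).

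Dlgap proteins link Dlg to Shank. Of their 16 peaks, 3 were higher in brain (18.8%, against 5.76% of all peaks). The Dlgap1 gene-end peak (17:69969112-69969220) had 10.0 and 30.1 RPM at 200 nuclei and 27.4 and 6.26 RPM at 50 nuclei in brain, and 0 in all lung libraries. That is 30 reads against none, a ratio of 50.6 with 3 reads put in lung (adjusted p = 7.30e-04). A peak deep in the gene (17:70633721-70633912) had 27.6 and 23.6 RPM at 200 nuclei and 21.9 and 21.9 RPM at 50 nuclei in brain, and 1.46 RPM in lung 200-nuclei replicate 2 and 0 in the other lung libraries (pooled ratio 93.6, interval 24.1 to 802, adjusted p = 0.00108). Dlgap2 (8:14447491-14447600) had 20.1 and 6.44 RPM at 200 nuclei and 41.0 and 43.8 RPM at 50 nuclei in brain, and 0.975 RPM in lung 200-nuclei replicate 3 and 0 elsewhere in lung (pooled ratio 67.5, interval 21.5 to 341, adjusted p = 8.37e-04). Lung was below brain in every library at these 3 peaks, and their calls held with each library left out. The 4 Dlgap4 peaks were not called, and the strongest averaged 96.5 ± 29.4 RPM in brain and 105 ± 25.9 RPM in lung. The Dlgap4 peak with the lowest p averaged 7.30 ± 2.84 RPM in brain and 23.1 ± 11.6 RPM in lung (adjusted p = 0.218).

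Homer proteins bind Shank to metabotropic receptors. The Homer1 gene-end peak, the widest of the set at 674 bp (13:93303519-93304193), had 148 and 137 RPM at 200 nuclei and 115 and 132 RPM at 50 nuclei in brain, against 92.0, 76.1 and 69.9 RPM at 200 nuclei and 85.3, 79.2 and 49.3 RPM at 50 nuclei in lung. This was the smallest called fold, and yet the tissues did not overlap (log2 fold 0.82 ± 0.27, SE, adjusted p = 0.047). The call was lost with 7 of the 10 libraries left out in turn (adjusted p up to 0.189 without brain 50-nuclei replicate 2). Homer3 averaged 41.6 ± 11.5 RPM in brain and 62.3 ± 15 RPM in lung and was not called (log2 fold -0.61, adjusted p = 0.321).

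**Figure D3:**
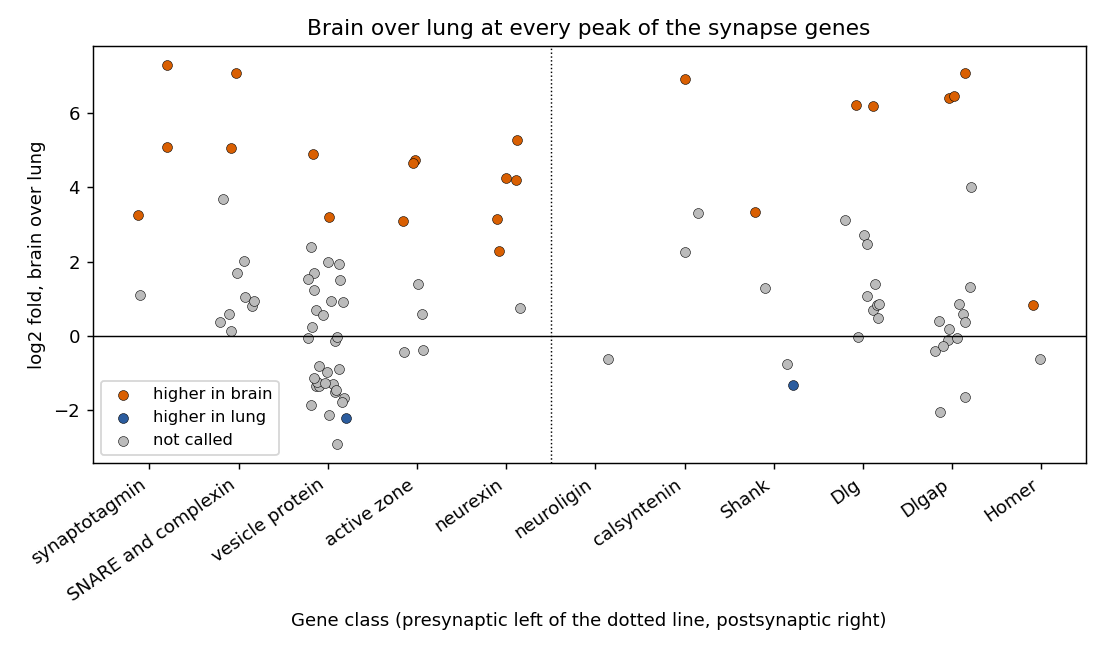
The vertical axis gives the log2 fold of brain over lung at each of the 100 peaks, grouped by gene class and coloured by call. Fitted folds of peaks with no lung reads in a size group depend on the model's prior count. Orange points (higher in brain) occur in every class but the neuroligins, and the 2 blue points (higher in lung) are at Syn3 among the vesicle proteins and Shank3.

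Of the 10 peaks with the highest mean level, those of Homer1 and Nrxn2 were called, a share no higher than in the whole set (25 of 100). Rab3a, which encodes a vesicle GTPase, led with a gene-end peak of 128 ± 26.9 RPM in brain and 137 ± 31.6 RPM in lung that has Mpv17l2 and Pde4c in reach (log2 fold -0.07 ± 0.26, SE, adjusted p = 0.901). Unc13b, another Munc13 factor, had a peak, with Fam214b in reach, that averaged 106 ± 15.2 RPM in brain and 138 ± 54.2 RPM in lung (adjusted p = 0.436). Vamp1, which encodes a vesicle SNARE, averaged 108 ± 23.1 RPM in brain and 98.4 ± 27.3 RPM in lung (adjusted p = 0.792). For Syt7, the gene-end peak averaged 39.3 ± 12.2 RPM in brain and 17.8 ± 3.69 RPM in lung and did not pass (log2 fold 1.11 ± 0.53, SE, adjusted p = 0.187) although all brain libraries were above all lung ones. The 75 uncalled peaks lay at 29 genes, and 44 of their folds were positive.

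The peaks higher in brain were narrow. The 23 peaks higher in brain had a median width of 112 bp, and 47.8% were gene-end peaks, with the centre within 1000 bp of a gene end. The median width was 175 bp among the 75 uncalled peaks, of which 26.7% were gene-end peaks, and 164 bp among all tested nuclear peaks, with 36.8%. Over the whole table, peaks higher in brain were 130 bp wide in the median and 39.6% lay at gene ends, and no test of these shares was made.

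When the reads of all peaks of a gene were summed, 13 of the 40 genes were higher in brain and 2 in lung, against 5.41% and 7.11% of the 12669 genes tested (12.5% called in all). The 13 were Clstn3, Syt1, Pclo, Nrxn3, Nrxn2, Syt7, Syn2, Shank2, Cplx1, Rims2, Syt5, Sv2b and Dlg4. Dlg4 was called only as a sum, with 165 ± 40.1 RPM in brain and 91.8 ± 19.6 RPM in lung (log2 fold 0.68 ± 0.21, SE, adjusted p = 0.042). The sums of Snap25, Homer1, Dlg2, Dlgap1 and Dlgap2, each with a called peak, did not pass, with adjusted p-values of 0.0895, 0.0876, 0.0771, 0.318 and 0.195. Syn3 was lower in brain as a sum, with 254 ± 55.0 RPM in brain and 381 ± 68.0 RPM in lung (log2 fold -0.75 ± 0.17, SE, adjusted p = 0.00774), and Shank3 likewise (43.0 ± 18.7 RPM in brain, 94.5 ± 39.9 RPM in lung, adjusted p = 0.0415). With any 1 brain library left out, the share of all genes called fell below 12.5%, and fewer sums of the set were called. Without brain 200-nuclei replicate 1 only 6 of the sums were called. The number was 7 without brain 50-nuclei replicate 1, 8 without brain 50-nuclei replicate 2 and 9 without brain 200-nuclei replicate 2.

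Presynaptic and postsynaptic genes were then compared as shares of each library. Presynaptic peaks together held 1632 and 1573 RPM at 200 nuclei and 1781 and 1516 RPM at 50 nuclei in brain, against 1212, 1224 and 1173 RPM at 200 nuclei and 1251, 1171 and 905.5 RPM at 50 nuclei in lung. Postsynaptic peaks held 1266 and 1081 RPM at 200 nuclei and 1237 and 1337 RPM at 50 nuclei in brain, against 825.1, 797.9 and 849.7 RPM at 200 nuclei and 865.9, 883.5 and 509.3 RPM at 50 nuclei in lung. Both sums were higher in every brain library than in any lung library. The ratio of presynaptic to postsynaptic reads averaged 1.33 ± 0.151 in brain (SD, n = 4) and 1.49 ± 0.159 in lung (SD, n = 6), and the ranges overlapped. Brain exceeded lung 1.41-fold for presynaptic and 1.56-fold for postsynaptic reads. Leaving out Syn3, a choice made after its values were seen, turned that order: presynaptic reads were then 1.77-fold higher in brain, and the ratio of presynaptic to postsynaptic reads was 1.12 ± 0.121 in brain and 1.00 ± 0.146 in lung. No p-value is given for these sums because the genes were chosen with results known.

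The sums were also split by call. The 15 presynaptic peaks higher in brain held 513.4 ± 90.6 RPM in brain and 54.5 ± 36.2 RPM in lung, while the 46 uncalled presynaptic peaks held 1106 ± 111 RPM in brain and 1071 ± 96.3 RPM in lung. The 8 postsynaptic peaks higher in brain held 387.0 ± 63.5 RPM in brain and 84.3 ± 21.1 RPM in lung, and the 29 uncalled ones 810.1 ± 83.2 RPM in brain and 626.0 ± 93.7 RPM in lung. These groups were sorted by the same test and serve as a description.

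**Figure D4:**
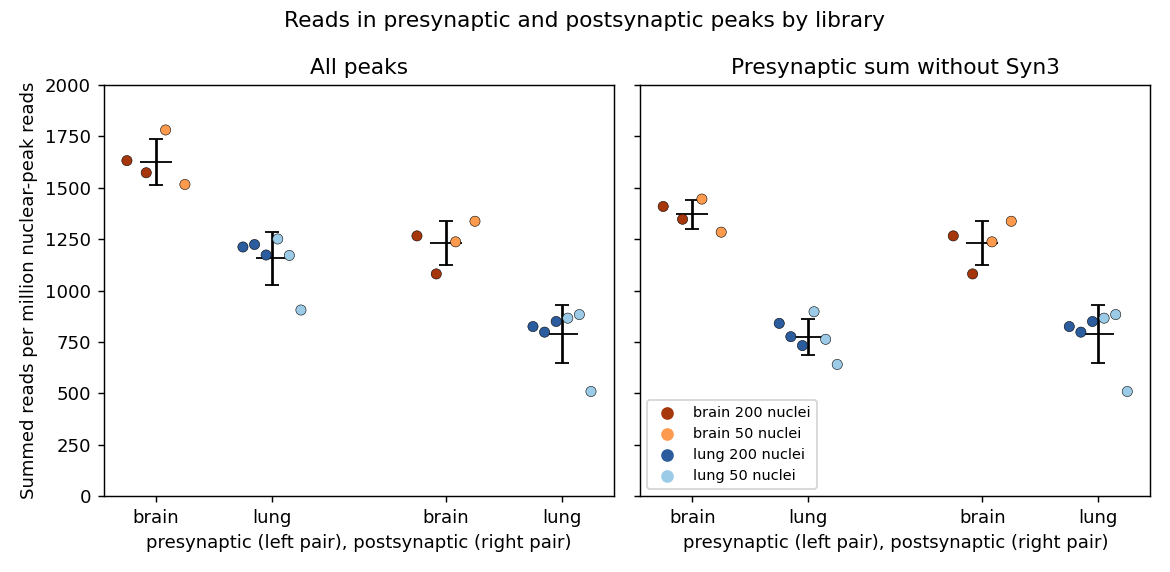
The vertical axis gives summed RPM in presynaptic and postsynaptic peaks, with a dot for each library, a black bar at the mean and whiskers of 1 SD. Left, all peaks; right, the presynaptic sum without Syn3. All brain dots lie above all lung dots in each pair, and lung 50-nuclei replicate 3 is the lowest lung library in each sum.

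The tissue difference was also tested at each size of mini-bulk. At 200 nuclei alone, 8 of the 100 peaks were called (2.24% of all peaks), 7 higher in brain (1.00% of all) and 1, at Shank3, higher in lung (1.24% of all). At 50 nuclei alone, 7 were called (1.41% of all), each higher in brain (0.918% of all, with 0.488% higher in lung). A test of whether the tissue difference depended on size called 0 of all 37466 peaks by adjusted p with edgeR, so the absence of calls in the set says nothing about these genes in particular. In the set, 4 peaks had an unadjusted p under 0.05 (4.15% of all peaks), at Clstn3, Syngr1 and 2 Syn3 peaks.

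Between 200 and 50 nuclei, edgeR likewise called 0 of all 37466 peaks by adjusted p in brain and 0 in lung, those of the set included. In brain 1 peak of the set had an unadjusted p under 0.05 (1.14% of all peaks). In lung 9 were higher at 200 nuclei by unadjusted p under 0.05 (8.20% of all peaks in either direction). With lung 50-nuclei replicate 1 left out, 1 peak passed the adjusted threshold in lung. Among the 9 was Clstn3, with 7.76, 5.86 and 0.325 RPM at 200 nuclei in lung and 0 in all 3 lung 50-nuclei libraries (unadjusted p = 0.00474). The lung 200-nuclei libraries were also the deepest, and depth and size cannot be told apart there.

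Other genes of the synapse outside the 48 were counted from lists. Over all peaks, 5.76% were higher in brain and 4.39% in lung, with a median log2 fold of 0.07. Of 65 peaks at 29 of 45 further presynaptic genes, brain was higher at 12 and lung at none, with a median log2 fold of 0.88. Snap91, an adaptor of vesicle endocytosis, averaged 31.9 ± 9.0 RPM in brain and 1.06 ± 1.41 RPM in lung (adjusted p = 0.00128), and Stxbp5, which encodes tomosyn, an inhibitor of SNARE assembly, 29.9 ± 14.1 RPM in brain and 3.65 ± 4.03 RPM in lung (adjusted p = 0.00302). Erc2, an active zone protein, had 9.67 ± 6.99 RPM in brain and 0 in lung (adjusted p = 0.00382). Of 71 peaks at 19 of 27 further postsynaptic genes, 11 were higher in brain and 7 in lung, with a median log2 fold of 0.42. Kalrn, an exchange factor of dendritic spines, had a peak of 23.1 ± 7.35 RPM in brain and 0 in lung and another of 12.7 ± 4.79 RPM in brain and 71.0 ± 24.8 RPM in lung, called in opposite directions (adjusted p = 3.36e-04 and 3.80e-04). The 7 peaks higher in lung lay at Kalrn, Sipa1l1 and Synpo.

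Markers of other cell types moved between the tissues as well, and their part in the results above was not tested. The shares over all peaks were 5.76% higher in brain and 4.39% higher in lung. Of 13 peaks at oligodendrocyte markers 4 were higher in brain (256 to 397 RPM in brain, 129 to 287 RPM in lung; Olig2 and Sox10 had no peak), and of 5 at astrocyte markers 1 was (43.8 to 90.2 RPM in brain, 18.5 to 43.8 RPM in lung; Aqp4 had no peak). None of 5 microglial peaks was called (49.4 to 95.8 RPM in brain, 34.1 to 106 RPM in lung; Cx3cr1 had no peak). Alveolar epithelial markers held 160 to 216 RPM in brain and 377 to 664 RPM in lung. Among markers of pulmonary neuroendocrine cells, lung cells that also use vesicle release genes, Calca, Chga and Insm1 had no peak. The 5 peaks at Ddc held 47.0 to 79.5 RPM in brain and 14.6 to 80.5 RPM in lung, and none was called.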

How the data were processed

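The authors deposited raw counts of reads in 37513 peaks for 10 libraries, and every column entered the tests. The build was mm10, per the submitters' processing notes, and the tools included Bowtie2 2.4.5, Picard, SAMtools 1.14 and MACS2 2.2.7.1. Not given in the sources used here are how peaks were merged, whether duplicates were removed, whether reads were shifted for Tn5 and whether coordinates start at 0 or 1. If duplicates remain, they widen the spread between libraries of few nuclei.

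Peaks were assigned to RefSeq genes of GRCm38.p6 with a reach of 5000 bp, protein-coding genes and list genes competing. The counts were tested with edgeR 4.0.16 (R 4.3.3) quasi-likelihood F tests with TMM on all 37466 peaks with at least 10 reads. The 4 tissue-by-size groups each had a mean, with adjusted p over all peaks and a threshold of 0.05. RPM used the reads of the 37511 nuclear peaks. A fold per total read, mitochondrial reads included, would be lower in brain. Gene sums used the same model. The scripts were tested on simulated data. DESeq2 1.42.0, other scalings, filters, left-out libraries and a replicate block were alternatives. Each called peak is named, as are up to 10 uncalled genes by level. Other uncalled peaks are named by way of illustration, chosen after their values were seen. The members, lists and tests were chosen with earlier results of these data known. Some genes of the marker lists are not reported here.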

Additional observations from a re-analysis of the deposited data

Results flagged for a closer look

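Over the 6 lung libraries, the summed level of the presynaptic peaks and that of the postsynaptic peaks both stood apart in lung 50-nuclei replicate 3. It held 905.5 RPM in presynaptic peaks, against 1171 to 1251 RPM in the other lung libraries, a gap of 0.769 of the whole range. In postsynaptic peaks it held 509.3 RPM, against 797.9 to 883.5 RPM, a gap of 0.771 of the range. Dixon's critical value for 6 samples is 0.625, and chance flags about 1 in 20 such groups. Without that library the lung means were 1206 ± 34.3 RPM for presynaptic and 844.4 ± 33.7 RPM for postsynaptic peaks (SD, n = 5), and both brain means stayed above them. The cause was not tested.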

How the results depend on the processing

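The 25 called peaks (10.2% of all peaks called) became 30 with DESeq2 (22 shared, 27 higher in brain and 3 in lung, 15.3% of all). They were 27 with nuclear totals in place of TMM (11.2% of all), 23 without the mitochondrial rows (9.67%) and 25 at a minimum of 1 read (10.1%). With filterByExpr, which tested 79 of the 100 peaks, 9 were called (5.96% of all). Of the 25, 9 kept and 2 lost their calls, and the others were not tested. There were 41 calls with lung 50-nuclei replicates 2 and 3 left out together (24 shared). Over all peaks and all genes, the shares called also rose with those 2 lung replicates left out together, and fell with any 1 brain library left out. No call reversed its direction. With 1 library left out, 12 to 36 peaks and 6 to 20 gene sums were called. Gene sums were 20 with DESeq2 and 22 without the lung replicates just named. Their fit holds no mitochondrial rows, so that alternative gave no separate value. The lung size contrast gave 0 to 1 peaks with a library left out and the brain size contrast 0 each time. Deviations of same-numbered libraries from their group means correlated with r between -0.0286 and 0.0187. Counting error at weakly read peaks weakens such correlations, so this check cannot exclude that the numbers pair libraries. A replicate block gave 17 peaks (16 shared, 5.45% of all peaks called) and 7 gene sums (7.32% of all genes called). The ratio of presynaptic to postsynaptic reads became 1.86 in brain and 2.0 in lung with gene-end peaks only, 1.15 in brain and 1.23 in lung with a single gene in reach, and 1.12 in brain and 1.00 in lung without Syn3. The genes held 88 peaks if all annotated genes competed and 96 if only overlap counted. DESeq2 scaling put the all-peak median log2 fold at 0.17, against 0.07. Brain libraries held at most 465489 nuclear reads, so small differences at weakly read peaks were not detectable.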
